A study of Mus musculus with 6 samples.

Results

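Fc gamma receptors and paired inhibitory receptors were followed here as 10 genes, the whole of a list given by name and looked up by Ensembl identifier in a table of 55487 genes. They were the activating receptors Fcgr1, Fcgr3 and Fcgr4, the inhibitory receptor Fcgr2b, the common gamma chain Fcer1g, the neonatal Fc receptor Fcgrt, and the inhibitory receptors Pirb, Lilrb4a, Cd300a and Sirpa. All 10 were found and all 10 passed the filter on low values, for which the 6 libraries had to average 10 or more normalized counts. RNA-seq had been done on bone marrow (BM) of mice carrying MLL-AF9 leukemia, an aggressive acute myeloid leukemia (AML) driven by a fusion of the Mll gene. The donor cells were C57BL/6, CD45.2, Mx1-Cre Brd9 fl/fl and carried MLL-AF9 (MA9), and 1000 of them were given to CD45.1 recipients, which per the labels were lethally irradiated (2 doses of 450 cGy), whereas the study's methods describe sublethal irradiation. From the day after the transplant the mice received 3 injections of PBS (n = 3) or of 20 mg/kg pIpC (n = 3), and the marrow was taken 10 days after injection. Both groups therefore carried the floxed alleles, Mx1-Cre and MA9, and differed by label only in the injection. Mx1-Cre is switched on by interferon, which pIpC, a mimic of double-stranded RNA, induces, so that any response to pIpC or interferon itself cannot be told apart from the deletion of Brd9. The labels describe GFP+ cells and the study's methods describe c-Kit+ cells, and neither says whether the 3 libraries of a group came from 3 mice, so that p-values measure the spread between these libraries only. By its design the comparison of pIpC with PBS asks what the loss of Brd9 changes in transplanted leukemia cells. The study's results place the injections after the disease had developed, whereas its methods start them the day after the transplant.

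Fc gamma receptors bind the constant part of IgG and let myeloid cells respond to antibody-coated targets. The activating receptors CD64 (Fcgr1), CD16 (Fcgr3) and FcγRIV (Fcgr4) pair with the common gamma chain (Fcer1g), whose ITAM motif recruits the kinase Syk after phosphorylation by Src-family kinases. The inhibitory receptor CD32B (Fcgr2b) carries an ITIM motif that recruits the phosphatase SHIP1, and the paired inhibitory receptors PIR-B (Pirb), gp49B (Lilrb4a), CD300a (Cd300a) and SIRPα (Sirpa) use ITIM motifs to recruit the phosphatases SHP1 and SHP2. Mature neutrophils, monocytes and macrophages are known to carry most of these receptors. FcRn (Fcgrt) has neither motif, pairs with β2-microglobulin, and returns IgG and albumin from endosomes to the cell surface.

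Total reads assigned to genes ranged from 19277439 to 23586722 per library. Brd9 itself was not lower in the libraries labelled pIpC, at 2103 ± 138.7 normalized counts (SD, n = 3) against 1835 ± 176.2 with PBS (limma log2 fold change 0.20, SE 0.13, adjusted p = 0.259; exact permutation p = 0.1, 2-sided, the smallest possible with 3 against 3). A gene total also holds reads from exons outside the deleted part, so it does not check the deletion, and the groups are called below by their labels. The libraries labelled pIpC stood apart in leukemia and lineage genes. Hoxa9, a target of MLL-AF9, was at 256.1 ± 28.38 in them against 5130 ± 195.3 with PBS, while the neutrophil granule gene Ngp was at 602200 ± 3570 against 5468 ± 1682, and Xist, the RNA of the inactive X chromosome (chosen after its values were seen), was at 21510 ± 4104 against 46.59 ± 28.78. Which cells the libraries labelled pIpC hold is therefore uncertain, and a gene said below to rise or fall with pIpC is one that differed between libraries by label. Among the PBS libraries, replicate 3 stood apart. Its genes shorter than 1000 bases lay a median of 0.411 (log2) above their mean over libraries, against -0.109 to -0.041 in the other 5, and results found to rest on it are given with and without it. Of 15020 genes tested by limma, 6808 (45.3%) passed an adjusted p under 0.1, of which 3750 were higher and 3058 lower with pIpC (25.0% and 20.4% of those tested). The share of higher calls was 55.1%, and it was 44.3% after quantile normalization, which moved the median log2 fold change of all tested genes from 0.01 to -0.12.

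Of the 10 receptor genes, 6 rose with pIpC, 1 fell, and 3 did not pass the test. Lilrb4a, Fcgr1, Pirb, Fcgrt, Fcgr4 and Sirpa rose, Fcgr2b fell, and Fcgr3, Fcer1g and Cd300a did not pass. The 7 of 10 that passed stand beside 45.3% of all tested genes, and the 8 of 10 whose groups did not overlap stand beside 56.8%. Fcgr1 is in both counts, but it passed the filter on low values only through the pIpC libraries (mean 4.279 with PBS, 65.29 with pIpC). It is therefore no support for a direction. The median log2 fold change of the 10 genes, with Fcgr1 still included, was 0.84, against 0.01 over all tested genes. Without PBS replicate 3, 9 of 10 passed, beside 9783 of all 15020 tested genes. Without pIpC replicate 3, 6 of 10 passed, beside 4750 of all tested genes. In bulk RNA, a change in the number of cells that carry a receptor and a change in its RNA per cell cannot be told apart.

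**Figure D1:**
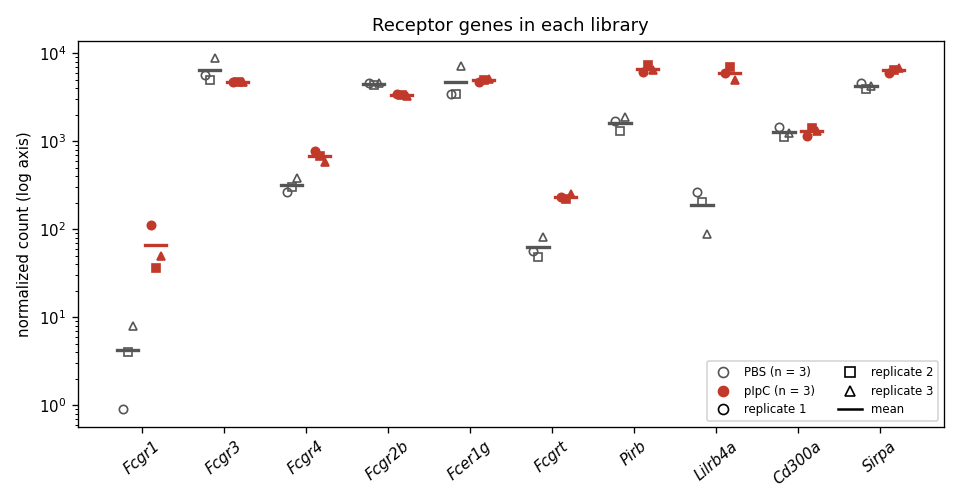
Normalized count (log axis) of each of the 10 receptor genes in each library, PBS as open grey and pIpC as filled red symbols, with the symbol shape giving the replicate and the line the mean of 3. The symbols of the groups overlap only for Fcer1g and Cd300a, and PBS replicate 3 (open triangle) lies above the other PBS libraries for Fcgr3 and Fcer1g.

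Among the activating receptors, Fcgr1 was nearly absent with PBS. Fcgr1, which encodes the high-affinity IgG receptor, had 0.9, 4.0 and 7.9 normalized counts in PBS replicates 1 to 3 (1, 4 and 7 reads) and 110.8, 35.8 and 49.3 in pIpC replicates 1 to 3. Every pIpC library was above every PBS library, with pIpC replicate 1 the highest. On the log2(normalized count + 1) scale the gene rose by 3.75 (SE 0.69, 95% interval 2.12 to 5.39, limma adjusted p = 0.00568). The fitted change ranged from 2.30 to 4.27 over the settings in which the gene was tested.

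Fcgr4 encodes the activating receptor that binds IgG2a and IgG2b. It had 264.8, 302.6 and 381.4 normalized counts with PBS and 778.5, 676.4 and 578.3 with pIpC. The groups did not overlap, and the gene rose by 1.10 (SE 0.19, 95% interval 0.64 to 1.56, limma adjusted p = 0.00471).

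Fcgr3, the low-affinity activating receptor, had 5638.6, 4890.9 and 8742.1 normalized counts with PBS and 4649.0, 4744.7 and 4698.6 with pIpC. All pIpC libraries lay below all PBS libraries, but the PBS libraries were spread widely and the difference of -0.41 (SE 0.22, 95% interval -0.93 to 0.12) did not pass (limma adjusted p = 0.195). Without PBS replicate 3, the highest, the difference shrank to -0.16 and passed (adjusted p = 0.0888), and without PBS replicate 2 it was -0.58 (adjusted p = 0.0964).

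Upstream sequence is shown for the 2 activating receptors that rose and for Pirb, an inhibitory receptor that rose. Windows are RefSeq sequence of GRCm38.p6, cut to end 1 base before the annotated gene start, written 5′ to 3′ on the strand of the gene. Capitals mark matches, on either strand, to GAGGAA (a core letter pattern of PU.1, the myeloid transcription factor), TTCNNNGAA (the gamma-activated site), GAAANNGAA (part of the interferon-stimulated response element) and TTNNGNAA (C/EBP).
Fcgr4, chr1:171018676-171018919, plus strand: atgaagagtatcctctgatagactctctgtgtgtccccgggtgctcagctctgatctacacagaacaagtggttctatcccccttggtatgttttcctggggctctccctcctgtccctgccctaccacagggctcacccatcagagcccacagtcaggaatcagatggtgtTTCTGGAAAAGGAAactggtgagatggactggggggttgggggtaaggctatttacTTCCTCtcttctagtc
Fcgr1, chr3:96293970-96294219, minus strand: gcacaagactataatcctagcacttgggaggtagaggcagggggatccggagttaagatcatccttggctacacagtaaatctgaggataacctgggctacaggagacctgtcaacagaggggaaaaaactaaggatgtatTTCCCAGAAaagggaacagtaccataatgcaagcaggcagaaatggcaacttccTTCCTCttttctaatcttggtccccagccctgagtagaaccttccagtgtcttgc
Pirb, chr7:3720392-3720632, minus strand: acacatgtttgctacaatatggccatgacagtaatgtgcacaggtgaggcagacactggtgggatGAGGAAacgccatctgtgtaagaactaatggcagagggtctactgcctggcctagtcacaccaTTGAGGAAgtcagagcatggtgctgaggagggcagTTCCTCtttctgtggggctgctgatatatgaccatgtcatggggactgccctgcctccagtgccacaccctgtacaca
Counted back from the last base as -1, the Fcgr4 window held a PU.1 core at -16, and the capitals at -72 joined an overlapping C/EBP and interferon-response match. In Fcgr1 the window held a PU.1 core at -55 and a gamma-activated site at -109. Pirb held 3 PU.1 cores, 1 of which overlapped a C/EBP match. In the uncut windows of 250 bases before the RefSeq start, PU.1 cores were found for 5 of the 8 receptor genes in the table, against 23.4% of 32536 windows. C/EBP matches were found for 5 of 8 against 36.8%, the gamma-activated site for 1 of 8 against 7.04%, and the interferon-response pattern for 1 of 8 against 7.15%. The PU.1 and C/EBP counts both include Fcgr3, whose uncut windows lie inside its annotated gene. The windows of Fcgr2b, Fcer1g and Fcgrt, which are not printed, held no PU.1 core. The uncut window of Fcgr2b also lies inside its annotated gene, so no sequence upstream of that gene was searched. Cd300a, which did not pass the test, held a PU.1 core at -39 and 2 C/EBP matches. Such short patterns are descriptions of the letters and not binding sites. Lilrb4a and Sirpa were not matched in the table.

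The inhibitory receptor Fcgr2b fell. It had 4594.3, 4292.7 and 4533.5 normalized counts with PBS and 3416.4, 3325.6 and 3246.2 with pIpC. All pIpC libraries were below all PBS libraries, with little spread in either group. The change was -0.43 (SE 0.11, 95% interval -0.68 to -0.17, limma adjusted p = 0.0205), equal to 1.34-fold lower. The call was lost without pIpC replicate 3 (-0.41, adjusted p = 0.103). An antisense gene, Gm38204, overlaps Fcgr2b, and per the labels the libraries were unstranded, but its own level was 4.283 with PBS and 5.979 with pIpC.

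Fcer1g, the chain on which the activating receptors depend, had 3428.0, 3396.9 and 7092.1 normalized counts with PBS and 4645.0, 4898.0 and 5129.0 with pIpC. The groups overlapped through PBS replicate 3 alone, and the difference of 0.17 (SE 0.29, 95% interval -0.53 to 0.86) did not pass (limma adjusted p = 0.680). Without PBS replicate 3 the gene was 0.52 higher with pIpC (adjusted p = 0.000161), and without PBS replicate 1 or 2 the difference was -0.01. Its transcript is the shortest among the 10 genes, with a median length of 678.5 bases. With each library's trend with transcript length removed, a fit added after seeing the data, Fcer1g was 0.40 higher with pIpC (adjusted p = 0.0911).

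**Figure D2:**
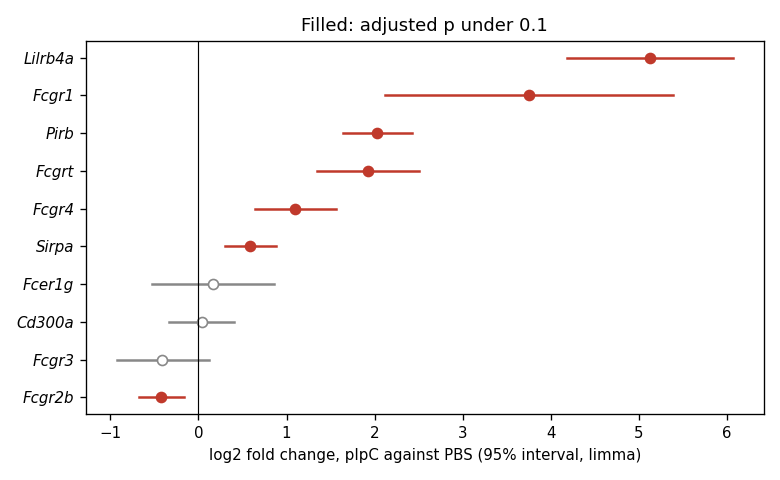
Log2 fold change of pIpC against PBS for each receptor gene with its 95% interval from limma, filled where the adjusted p was under 0.1. Lilrb4a (5.13) and Fcgr1 (3.75) stand highest, Fcgr2b (-0.43) is the one call below 0, and the intervals of Fcer1g, Cd300a and Fcgr3 include 0.

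Read within a library, the balance of activating to inhibitory Fc gamma receptor differed between receptors. The log2 ratio of Fcgr4 to Fcgr2b, each per kb of transcript, was -3.84, -3.55 and -3.29 with PBS and -1.86, -2.02 and -2.21 with pIpC, a difference of 1.53. The ratio of Fcgr1 to Fcgr2b differed by 4.18, from a mean of -10.76 to -6.58. For both, the groups did not overlap and the exact permutation p was 0.1 (2-sided, the smallest possible with 3 against 3; 0.15 adjusted over 3 ratios). The ratio of Fcgr3 to Fcgr2b differed by 0.02 (0.68 ± 0.41 with PBS, 0.70 ± 0.05 with pIpC, SD, n = 3; exact permutation p = 1.0). It was 0.49, 0.39 and 1.15 with PBS and 0.64, 0.71 and 0.73 with pIpC, so this rests on PBS replicate 3. Without that library the difference was 0.25 (exact permutation p = 0.2) and the groups did not overlap.

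In shares of the 4 summed receptor chains per kb, Fcgr4 made up 2.81%, 3.56% and 3.07% with PBS and 9.65%, 8.52% and 7.47% with pIpC. Fcgr1 made up 0.0195% ± 0.0136 with PBS and 0.398% ± 0.237 with pIpC (SD, n = 3). Fcgr3 remained the most abundant chain in every library, at 54.6% to 66.7% with PBS and 54.7% to 57.6% with pIpC, followed by Fcgr2b at 30.2% to 41.8% and 34.6% to 35.0%. These shares depend on the length used, which for Fcgr2b was 1520 bases, against 5790 with all its exons merged. The summed level of the 4 chains was 8048 ± 1638 per kb with PBS and 6303 ± 130.0 with pIpC (SD, n = 3; exact permutation p = 0.1). By library it was 7492, 6761 and 9892 with PBS and 6422, 6324 and 6164 with pIpC. The size of this difference thus leans on PBS replicate 3, although the groups did not overlap. Fcer1g per summed activating chain, both per kb, was 1.13, 1.27 and 1.51 with PBS and 1.64, 1.75 and 1.88 with pIpC (exact permutation p = 0.1), and these groups did not overlap.

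**Figure D3:**
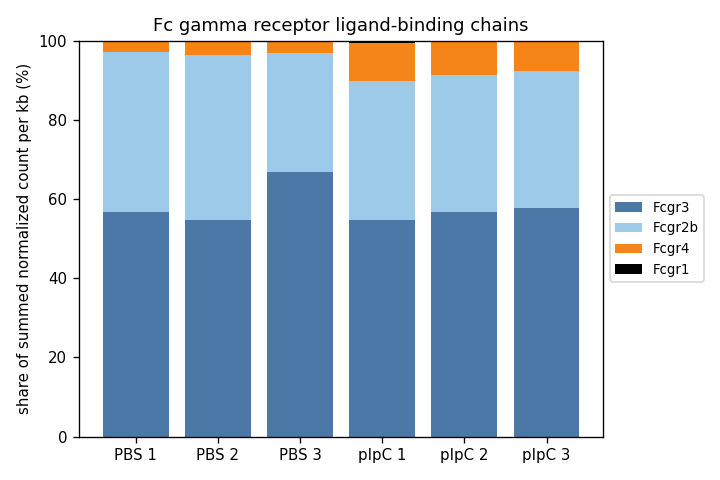
Share (%) of each of Fcgr3, Fcgr2b, Fcgr4 and Fcgr1 in their summed normalized count per kb of transcript, as stacked bars, 1 per library. The Fcgr4 share lies between 2.81% and 3.56% in the PBS libraries and between 7.47% and 9.65% in the pIpC libraries.

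Fcgrt, the neonatal Fc receptor, had 57.1, 48.6 and 81.5 normalized counts with PBS and 233.5, 218.6 and 250.5 with pIpC. The pIpC libraries were close to each other and all above PBS. The rise was 1.92 (SE 0.24, 95% interval 1.35 to 2.50, limma adjusted p = 0.00106). Its partner B2m, which also forms MHC class I, was 0.65 higher (adjusted p = 0.0998) with groups that overlapped through PBS replicate 3. Without that library B2m was 0.93 higher (adjusted p = 0.000116) and the groups did not overlap.

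The largest change among the 10 genes was in Lilrb4a. It had 263.9, 205.5 and 88.3 normalized counts with PBS and 5973.4, 6971.0 and 4989.7 with pIpC. Every pIpC library was far above every PBS library, PBS replicate 3 being the lowest. The rise was 5.13 (SE 0.39, 95% interval 4.19 to 6.07, limma adjusted p = 0.000134), or 34.9-fold, and it ranked 492 of 15020 tested genes by absolute change. Counting for this gene is uncertain. Every 100-base window of its transcript was also found in Gm49339, an overlapping gene model with 4.381 normalized counts with PBS and 58.16 with pIpC, and 14.3% of windows were found in Lilr4b. Lilr4b, the related activating receptor next to it (named after its values were seen), rose as well, by 5.64 (SE 0.35, adjusted p = 5.8e-05), from 181.0 ± 73.75 to 8540 ± 1574 (SD, n = 3).

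Pirb, an inhibitory receptor for MHC class I, had 1670.7, 1306.7 and 1874.0 normalized counts with PBS and 6082.2, 7221.3 and 6363.8 with pIpC. The groups were far apart and the rise was 2.03 (SE 0.17, 95% interval 1.64 to 2.43, limma adjusted p = 0.000169). Its transcripts shared 24.7% of 100-base windows with other genes, among them 13.9% with Pira2, so that reads of this family are split with some uncertainty. Pira2, the activating partner in the same locus, had 971.6, 811.8 and 950.6 with PBS and 808.4, 1029.9 and 970.9 with pIpC, a difference of 0.04 with overlapping groups (adjusted p = 0.865). Of the 100-base windows of Pira2, 86.5% were shared with other genes, 74.0% with Gm15922, so its counts are more uncertain than those of Pirb. The difference between Pirb and Pira2 was not tested.

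Sirpa, the receptor for the "do not eat me" protein CD47, had 4517.3, 3879.7 and 4237.0 normalized counts with PBS and 5948.4, 6375.3 and 6678.1 with pIpC. The groups did not overlap, and the rise was 0.59 (SE 0.12, 95% interval 0.30 to 0.88, limma adjusted p = 0.00930). Its ligand Cd47 was at 9845.6 to 12460.8 with PBS and 8970.8 to 9299.9 with pIpC, a difference of -0.23 that did not pass (adjusted p = 0.237).

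Cd300a, which binds phospholipids of dying cells, had 1448.4, 1103.3 and 1234.6 normalized counts with PBS and 1144.8, 1416.1 and 1313.2 with pIpC. The groups overlapped and the difference was 0.04 (SE 0.15, 95% interval -0.33 to 0.40, limma adjusted p = 0.867). Its sign turned with the scaling, to -0.08 after quantile normalization.

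Levels can be compared between genes only per kb of transcript, here by the median protein-coding transcript length. For Lilrb4a this was 1210.5 bases, against 5227 with all its exons merged, and for Fcgr2b 1520 against 5790. The places of these genes in the orders below therefore depend on the length used. With PBS the order ran from Fcer1g (6837 ± 3131 normalized counts per kb, SD, n = 3) through Fcgr3, Fcgr2b, Sirpa, Pirb, Cd300a, Fcgr4, Lilrb4a and Fcgrt to Fcgr1 (1.653 ± 1.365). Fcer1g and Fcgr3, Cd300a and Fcgr4, and Fcgr4 and Lilrb4a had overlapping ranges, and the other neighbours in the order did not. With pIpC, Fcer1g was again the highest (7208 ± 356.8), and Lilrb4a, 8th with PBS at 153.6 ± 73.88, was 2nd at 4938 ± 818.4. The range of Sirpa overlapped that of Pirb (1738 ± 100.6 against 1714 ± 155.2), and no other neighbours overlapped. Fcgr1 was the lowest in both groups, at 25.22 ± 15.44 with pIpC.

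Signalling genes downstream of the activating receptors included some with large rises. Of 21 genes on that list, all tested, 9 rose, 1 fell and 11 did not pass (median log2 fold change 0.30). The counts of this list and of the lists below stand beside 25.0% of all tested genes higher and 20.4% lower. Blnk passed the filter on low values only through the pIpC libraries, as did genes on some lists below. Such genes are no support for a direction. Blnk, an adaptor best known in B cells, rose by 5.65, the Src-family kinases Fyn and Fgr by 3.92 and 2.08, and the PI3K subunit Pik3r5 by 2.28. Lyn, Plcg2 and Sh3bp2 had the smallest rises that passed, at 0.61, 0.61 and 0.63, and Card9 fell by 0.52. Tyrobp, which encodes the ITAM adaptor DAP12, had 8350.2, 7938.6 and 20578.2 with PBS and 7015.4, 7250.9 and 7178.0 with pIpC, and did not pass (-0.63, adjusted p = 0.214; named after its values were seen). Without PBS replicate 3 the difference was -0.19 and passed (adjusted p = 0.0257), and 16 of the 21 genes passed, 12 higher and 4 lower. In that fit 9783 of all 15020 tested genes passed, 5186 higher and 4597 lower.

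Among 12 genes of inhibitory signalling, 5 rose, 1 fell and 6 did not pass (median 0.26), where 45.3% of all tested genes passed. The adaptor Dok2 rose by 3.78 and Pag1, which holds the inhibitory kinase Csk at the membrane, by 3.50. Ptpn11 (SHP2) rose by 0.75, Ptpn22 by 0.45 and Ptpn6 (SHP1) by 0.30. Inppl1, which encodes the phosphatase SHIP2, fell by 3.23. Inpp5d (SHIP1), the phosphatase used by Fcgr2b, had a difference of 0.00 with overlapping groups (adjusted p = 0.990; named after its values were seen), and without PBS replicate 3 the difference was -0.23 and passed (adjusted p = 0.0126). Counts on this list moved with single libraries, to 12 of 12 (9 higher, 3 lower) without PBS replicate 3 and 3 of 12 without pIpC replicate 1. Of all 15020 tested genes, 9783 and 5060 passed in these fits.

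Other Fc receptors, among them the IgE and IgM receptors, were mostly higher with pIpC. Of 13 listed, 8 were tested, of which 7 rose and Trim21 (the cytosolic antibody receptor, 0.04) did not pass. Several of the 7, such as Fcer1a and Fcmr, passed the filter on low values only through the pIpC libraries, so their count is no support for a direction. Fcrls, with 14.7, 14.2 and 19.2 normalized counts with PBS and 3.0, 2.0 and 1.0 with pIpC, missed the filter. With no filter all 13 were tested, of which 9 rose and Fcrls fell (-2.55, adjusted p = 0.00675). The median was 4.19, or 3.94 with genes at 0 reads in all PBS libraries set to their lower bound. Fcer1a, the IgE-binding chain that pairs with Fcer1g, had 0 reads in every PBS library and 232.5, 238.1 and 189.5 normalized counts with pIpC, at least 73.1-fold higher against a floor of 3 reads per library. Ms4a2, the beta chain of the same receptor, rose by 5.42. Fcmr, the IgM receptor, was also at 0 reads with PBS and at least 15.2-fold higher. Fcrla, Fcrl5, Fcer2a and Fcrl1, which are mainly B cell genes, rose by 4.41, 3.96, 3.51 and 1.58.

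For other paired receptors, 40 of 46 listed names were matched and 37 tested, of which 25 rose, 6 fell and 6 did not pass (median 1.47). Several of the 25, such as Treml1 and Siglech, passed the filter on low values only through the pIpC libraries. Their count is therefore no support for a direction. The B cell receptors Cd72 and Cd22 rose by 5.77 and 4.73, Siglech of plasmacytoid dendritic cells rose by 4.92, and the platelet receptor Treml1, at 0 reads in every PBS library, was at least 18.5-fold higher. Siglecf, known from eosinophils, fell by 3.11, and Cd300lg, Lilra6 and Cd33 fell by 2.31, 1.58 and 1.23. In the Cd300 family, to which Cd300a belongs, Cd300lf rose by 3.60 and Cd300e by 3.82, Cd300c2 fell by 1.04, and Cd300lb had a difference of 0.00 (adjusted p = 0.994), these 4 being named after their values were seen.

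Ligands and partner chains were described on a list of 12, of which 11 were tested, 9 rose, none fell and 2 did not pass (median 3.19). The MHC class I chain H2-D1, a ligand of Pirb, rose by 0.74, and H2-K1 was 0.66 higher and did not pass (adjusted p = 0.102). Without PBS replicate 3, H2-K1 was 0.92 higher and passed (adjusted p = 0.000654). Among the antibody genes, Igha rose by 6.52, Ighg2c by 5.69, Ighg2b by 4.61, Ighm by 3.19 and Ighg3 by 2.33, and Ighg1, at 0 reads in every PBS library, was at least 30.4-fold higher. Ighg1 passed the filter on low values only through the pIpC libraries, so it is no support for a direction. Thbs1, a further ligand of CD47, rose by 5.93.

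**Figure D4:**
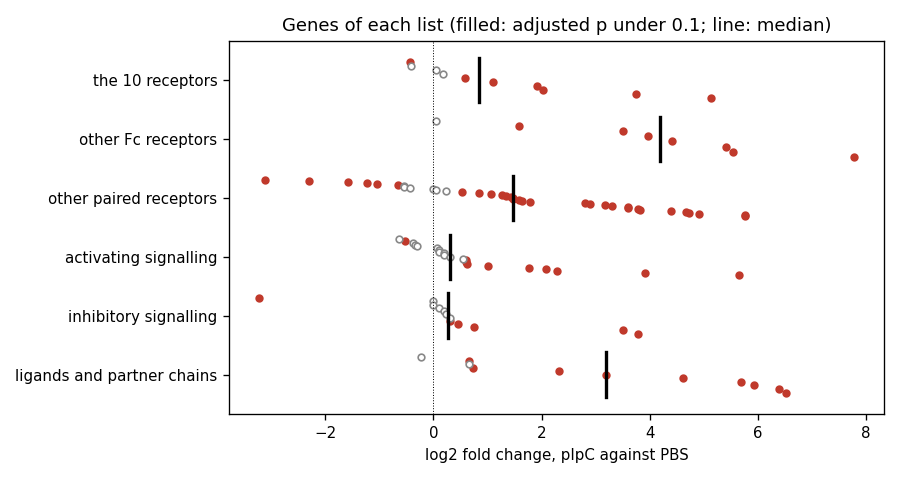
Log2 fold change of pIpC against PBS for each tested gene of the 10 receptors and of 5 related lists, filled where the adjusted p was under 0.1, with a line at each list's median. Medians run from 0.26 (inhibitory signalling) to 4.19 (other Fc receptors), and genes at 0 reads with PBS are drawn at their fitted value, which depends on the pseudocount.

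Markers of mature blood cells also differed between the groups, and their part in the receptor results was not tested. All 12 neutrophil markers rose (median 6.56), among them Ngp (6.83), Ly6g (8.23) and, least, Csf3r (0.94), and their summed normalized count was 22850 to 43270 with PBS and 2050000 to 2116000 with pIpC. Of 10 monocyte markers 7 rose and 2 fell, the sum being 28490 to 33230 against 47660 to 51140, with F13a1 (4.88) highest, Ly6c2 (0.40) most abundant and Ms4a4c (-1.41) lowest. Macrophage markers were split, with 10 of 14 higher and 3 lower and a sum of 11360 to 15550 against 7552 to 10010. Spic rose by 5.55, the most abundant, Vcam1, fell by 0.90, and Adgre1 (F4/80) fell by 3.80. No marker on these 3 lists was at 0 in all PBS libraries. Some macrophage markers that rose, such as Spic and Timd4, still passed the filter on low values only through the pIpC libraries. Their count is therefore no support for a direction.

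Markers of the other lineages were mostly higher with pIpC, except that the summed eosinophil level was lower. Several of them passed the filter on low values only through the pIpC libraries, so their counts are no support for a direction. At 3 reads or fewer in every PBS library were 6 of 10 erythroid, 4 of 8 megakaryocyte and 5 of 10 B cell markers. The sum of 10 B cell markers was 137.7 to 304.4 with PBS and 1379 to 2505 with pIpC, all 10 rising, with Ms4a1 at 0 in all PBS libraries, Pax5 (7.41) highest and Cd79b (1.25) most abundant and lowest. For basophils and mast cells, 6 of 8 rose and Gata2 fell by 1.18, the sum being 4437 to 6790 against 10990 to 13120, with Fcer1a at 0 with PBS, Hdc (1.06) most abundant and Prss34 at 1 read over the PBS libraries and 2213 ± 417.9 normalized counts (SD, n = 3) with pIpC. Of 7 eosinophil markers tested 4 rose and Siglecf fell, Ccr3 (5.74) being highest and Prg2 (-0.50, adjusted p = 0.430, and 0.03 without PBS replicate 3) most abundant, with Ear6 at 0 with PBS and a sum of 8579 to 14380 against 4772 to 5416. All 8 dendritic cell markers rose, from Flt3 (1.45) to Siglech, with sums of 217.3 to 358.2 and 1006 to 1313. Of 12 T and NK cell markers 7 were tested and 6 rose, from Cd4 (2.19) to Ncr1 (4.79), with Nkg7 (4.31) most abundant, Prf1 at 0 with PBS, and sums of 198.1 to 339.5 and 3912 to 4538. All 10 erythroid markers rose, from Alas2 (3.26) to Car1 (9.44), with Hba-a1 (8.42) most abundant, Slc4a1 and Rhag among those at 0 with PBS, and sums of 20.77 to 31.69 and 4086 to 5827. All 8 megakaryocyte markers rose, Itga2b (1.08) being lowest and most abundant, with Ppbp, Gp6 and Treml1 at 0 with PBS and sums of 379.0 to 554.5 and 1525 to 2201.

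Programs named by the model and the treatment were also counted. Of 12 genes of the MLL-AF9 program, 2 rose and 9 fell (median -2.70), with sums of 48590 to 67860 with PBS and 21460 to 22130 with pIpC. Hoxa10 fell by 6.38, Myb, the most abundant, fell by 1.24, and Mef2c rose by 7.72. Kit, which marks the gate named in the study's methods, was at 6265 ± 2063 with PBS and 4362 ± 217.0 with pIpC and did not pass (-0.46, adjusted p = 0.213; named after its values were seen). Without PBS replicate 3 the difference in Kit was -0.77 and passed (adjusted p = 2.4e-05). Of 20 interferon-stimulated genes, 8 rose, Oas1a fell by 1.34 and 11 did not pass (median 0.96), where 45.3% of all tested genes passed. Their sums were 5032 to 7738 and 6626 to 10880. Ifi44 had the largest rise on this list, 3.86, but passed the filter on low values only through the pIpC libraries.

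The genes most like each Fc gamma receptor over the 6 libraries were found by the root mean square difference of their centred log2 values among 10487 genes with a mean of at least 100. For Fcgr1 these were C1qb (0.397) and C1qa (0.407), which are also on the macrophage list. C1qb had 19.9, 29.4 and 43.0 normalized counts with PBS and 565.9, 231.9 and 367.5 with pIpC, with pIpC replicate 1 the highest and replicate 2 the lowest, as for Fcgr1. For Fcgr4 they were Gimap9 (0.076) and Itga2b (0.103), for Fcgr2b Arhgap15 (0.027) and Nup54 (0.028), for Fcgr3 Dpm2 (0.038) and Emc7 (0.040), and for Fcer1g Unc119 (0.042) and Rab2a (0.044). Dpm2, Emc7, Unc119 and Rab2a were each highest, among the PBS libraries, in replicate 3, as Fcgr3 and Fcer1g were.

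The genes of the Fc gamma receptor cluster lie together on chromosome 1 (GRCm38), and they did not move together. Fcgr2b (chr1:170958617-170976547, minus strand), Fcgr4 (chr1:171018920-171029761, plus strand), Fcgr3 (chr1:171051174-171064935, minus strand) and Fcer1g (chr1:171229572-171234365, minus strand) are separated by 42.4, 21.4 and 164.6 kb. Fcgr4, between Fcgr2b and Fcgr3, rose by 1.10, while its neighbours had -0.43 and -0.41. Of 29 tested genes within 500 kb of Fcgr4, 8 rose and 6 fell (median 0.06), from Fcrla (4.41) to Pcp4l1 (-3.69). The windows around Fcgr2b, Fcgr3 and Fcer1g held 28 to 32 tested genes, with 8 to 9 higher and 4 to 7 lower and the same extremes. Over all tested genes, 25.0% were higher and 20.4% lower.

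**Figure D5:**
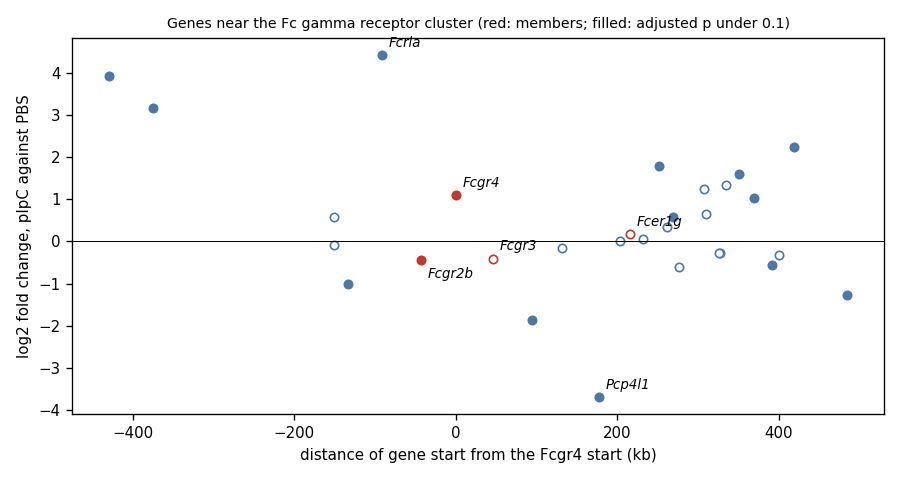
Log2 fold change of pIpC against PBS for the tested genes within 500 kb of Fcgr4, against the distance (kb) of each gene's start from that of Fcgr4, with receptor genes in red and filled symbols for an adjusted p under 0.1. Fcgr4 (1.10) lies between Fcgr2b (-0.43) and Fcgr3 (-0.41), and Fcrla (4.41) and Pcp4l1 (-3.69) are the extremes.

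The other receptors lie apart, and the counts of their neighbours stand beside the same shares (25.0% higher and 20.4% lower). Around Lilrb4a (chr10:51490956-51496611, plus strand), the 3 tested neighbours all rose, from Gm49339 (3.91) to Lilr4b (5.64). Gm49339 overlaps Lilrb4a on the same strand and holds all its 100-base windows, and Lilr4b holds 14.3% of them. Their counts may therefore hold reads of Lilrb4a. Around Pirb (chr7:3711409-3720391, minus strand), 8 of 25 neighbours rose and 4 fell, from Gm44165 (3.70) to Gm15448 (-2.94). Fcgrt (chr7:45092990-45103851, minus strand) had 51 tested neighbours, 6 higher and 15 lower, from Dkkl1 (4.83) to Ccdc155 (-3.66). Near Fcgr1 (chr3:96282909-96293969, minus strand) 6 of 35 rose and 4 fell, from Plekho1 (1.48) to Lix1l (-1.42). The 21 neighbours of Cd300a (chr11:114890041-114904654, plus strand) held 6 that rose and 7 that fell, from Cd300ld3 (4.55) to Kif19a (-4.07), and the 13 of Sirpa (chr2:129592835-129632228, plus strand) held 3 and 5, from Il1b (2.96) to Tgm3 (-2.02).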

How the data were processed

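RNA-seq of 6 mouse BM libraries was analysed (PBS, n = 3; pIpC, n = 3). The authors deposited gene counts normalized by 1 factor per library, treated here as a signal. The labels' processing notes name HISAT2 2.2.1, SAMtools, featureCounts (Subread), edgeR and GRCm38, whereas the study's methods name nf-core/rnaseq with STAR and RSEM on mm10, so that the upstream steps are uncertain. Divided by what 1 read is worth in its library, 100% of values were whole (within 0.01), and reads were recovered in this way. No column was left out.

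Symbols (55141 of 55487 identifiers), positions and lengths came from GENCODE M21. limma 3.58.1 (R 4.3.3) with an intensity trend was run on log2(normalized count + 1), 2-sided, for genes with a mean of at least 10, with Benjamini-Hochberg adjustment and a threshold of 0.1. Fold changes on this scale understate the change of low genes. edgeR 4.0.16 and DESeq2 1.42.0 on the recovered reads, other pseudocounts, filters and scalings, each library left out, a replicate block and a length correction (added after seeing the data) were alternatives. Scripts were tested on simulated data. Levels between genes used the median protein-coding transcript length.

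Replicates differed beyond counting noise (chi-square per gene 6.30 to 193.9). Same-numbered libraries did not deviate together (correlations -0.117, 0.143 and 0.0405). The receptors and lists were chosen with earlier results of these data known. Genes named are the 10 receptors, the 4 highest and 4 lowest calls of each pathway list, every tested ligand or partner chain, the most abundant, highest and lowest marker of each list, the 2 most alike genes and the extreme neighbours, except that some list genes are not reported here; others are stated as chosen after their values were seen.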

Additional observations from a re-analysis of the deposited data

How the results depend on the processing

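Of 179 comparisons of a receptor gene's fold change with an alternative, 167 kept direction and side of the threshold, 5 gained a call, 1 lost it and 6 turned sign. Fcgr1, Fcgr4, Fcgrt, Pirb, Lilrb4a and Sirpa kept both in every alternative that tested them, Fcgr1 not being tested at a mean of at least 50. The count of receptor genes that passed was 6 to 9 over the libraries left out, and 6 with the mean filter at 50. Fcer1g was -0.01 without PBS replicate 1 or 2 and 0.52 without PBS replicate 3 (range over libraries left out -0.01 to 0.52). Cd300a was -0.08 after quantile normalization, -0.25 with the length trend removed, and -0.06 to 0.14 over libraries left out (-0.06 without PBS replicate 2, -0.03 without pIpC replicate 2). The difference of the Fcgr3 to Fcgr2b ratio was -0.12 to 0.25 over libraries left out, at -0.07, -0.12 and 0.25 without PBS replicates 1, 2 and 3. Fcgr3 passed after quantile normalization (-0.46, adjusted p = 0.0735). The causes were not tested.

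Over libraries left out, 9 to 16 activating and 3 to 12 inhibitory signalling genes passed, and 4650 to 9783 of all genes. Of the other Fc receptors, 3 passed with the mean filter at 50, where fewer were tested. With all genes, edgeR called 6901 and DESeq2 7451. Same-numbered libraries share only a number. With a replicate block 7 receptor genes and 6095 of all genes passed, and the block changed no receptor call. Of 216 marker list counts, 212 stayed within 1.5 times, and the others were interferon-stimulated genes at 14 with DESeq2 (9 in limma), dendritic cell genes at 4 and T and NK cell genes at 1 with the mean filter at 50, and T and NK cell genes at 11 with no filter. With 3 against 3, exact tests cannot go below 0.1, and Fcgr1 with PBS is limited by its few reads.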
